A study of Mus musculus with 15 samples.

Results

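The genes described here are those of the proteasome, the protease complex that degrades ubiquitin-tagged proteins. They were chosen by symbol: every probe set with a single gene symbol that begins with Psma, Psmb, Psmc, Psmd, Psme or Psmg was taken, and the brightest probe set over all arrays stood for its gene. This gave 49 genes of the 19938 measured. By textbook role 47 of them are subunits, activators or assembly factors. The other 2, Psmc3ip and Psme3ip1, carry the symbol of a proteasome gene in their own but belong to none of these classes. Psmc3ip encodes a partner of the recombinases that act in meiosis, and Psme3ip1 encodes a protein that binds the activator subunit made by Psme3.

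RNA came from the right hippocampus of male C57BL/6 mice at postnatal day 9, read on 15 Affymetrix Mouse Gene 1.0 ST arrays, which carry probes along the exons of each gene. There were 3 arrays in each of 5 groups, and all treatment fell between postnatal days 5 and 9. SSM pups had severe stress with the opioid morphine, SSS pups severe stress with saline, MSM pups mild stress with morphine, MSS pups mild stress with saline, and CC pups no treatment. Litters were limited to 7 pups. The sources used here give neither the morphine dose, nor the content of the mild or severe stress, nor the litter of each pup. Each p-value thus sets a difference only against the spread among these arrays, and whether pups of a group shared a litter is not known. CC differs from each treated group both in stress and in the saline or morphine given.

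The proteasome consists of a barrel, the 20S core, which is built of rings of alpha and beta subunits, and a cap, the 19S particle. Beta subunits cut proteins inside the barrel. The cap holds a ring of ATPases, which unfold proteins and thread them into the barrel, and non-ATPase subunits, which bind ubiquitin and remove it. In cells exposed to interferon, inducible beta subunits replace the constitutive catalytic ones and give the immunoproteasome, which favours peptides for antigen presentation, while other activators can open the barrel in place of the 19S cap. In neurons the complex turns over synaptic and misfolded proteins, and in many cells the transcription factor Nfe2l1 raises all of its subunit genes together when degradation is limiting.

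All levels below are log2 intensities relative to the median of the 19938 genes on the same array, so a level of 3 lies 3 doublings above that median. A difference between groups is the difference of such levels, with its standard error (SE) from a limma fit to all 15 arrays and with p-values adjusted by Benjamini-Hochberg over all 19938 genes. The scale bears on the results because SSM replicate 3 had a deposited median of 6.39, against 6.22 to 6.27 on the other 14 arrays. Correlations between arrays across genes ran from 0.990 to 0.998, and 0 pairs were identical. Some arrays carried markers of neighbouring tissue. The mean level of 8 measured striatum markers was 3.51 in SSM replicate 1, 1.85 in MSM replicate 2 and 2.34 in CC replicate 1, against 0.70 to 1.22 elsewhere. The mean of 9 thalamus markers was 2.19 in MSM replicate 3, against 0.755 to 1.105 elsewhere. The mean of 10 choroid plexus markers was -0.69 in SSS replicate 2, -0.54 in MSS replicate 1 and -0.67 in MSS replicate 2, against 0.47 to 1.62 elsewhere. Hippocampal neuron markers were lowest on MSM replicate 3, at 1.17, and on SSM replicate 1, at 1.44, against 1.84 to 2.14 elsewhere. On a whole-tissue array fewer cells of a type and less RNA per cell cannot be told apart.

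The proteasome genes varied little between arrays. On all 15 arrays 43 of the 49 lay above the array median, against 46.8% of all genes, and the other 6 lay below it on all 15: Psma8, Psmb11, Psmb8, Psmc3ip, Psmg3 and Psmg4. Psma8 and Psmb11 belong to the core particles of the testis and the thymus, and Psmb8 is an inducible subunit. No detection calls were used, so a level below the median is not evidence of absence or presence of the transcript. Levels of different genes come from different probes and are not compared with one another.

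The spread of a gene over the 15 arrays, as the SD of its level, had a median of 0.0768 for the 49 genes and 0.0938 for all genes, and 40 of the 49 lay below the median of all genes. Among the 20S alpha subunits the SD ran from 0.0447 for Psma1 to 0.0831 for Psma2, and among the constitutive beta subunits from 0.0446 for Psmb7 to 0.110 for Psmb5. Both are catalytic, Psmb7 with trypsin-like and Psmb5 with chymotrypsin-like activity. The 19S ATPases ran from 0.0463 for Psmc5 to 0.0791 for Psmc2, and the 19S non-ATPases from 0.0496 for Psmd11 to 0.103 for Psmd12. The widest classes were the activators, with Psme3 at 0.0337 and Psme2 at 0.165, and the assembly chaperones, with Psmd9 at 0.0634 and Psmd10 at 0.166. The inducible beta subunits lay between 0.0705 for Psmb8 and 0.0932 for Psmb10.

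**Figure D1:**
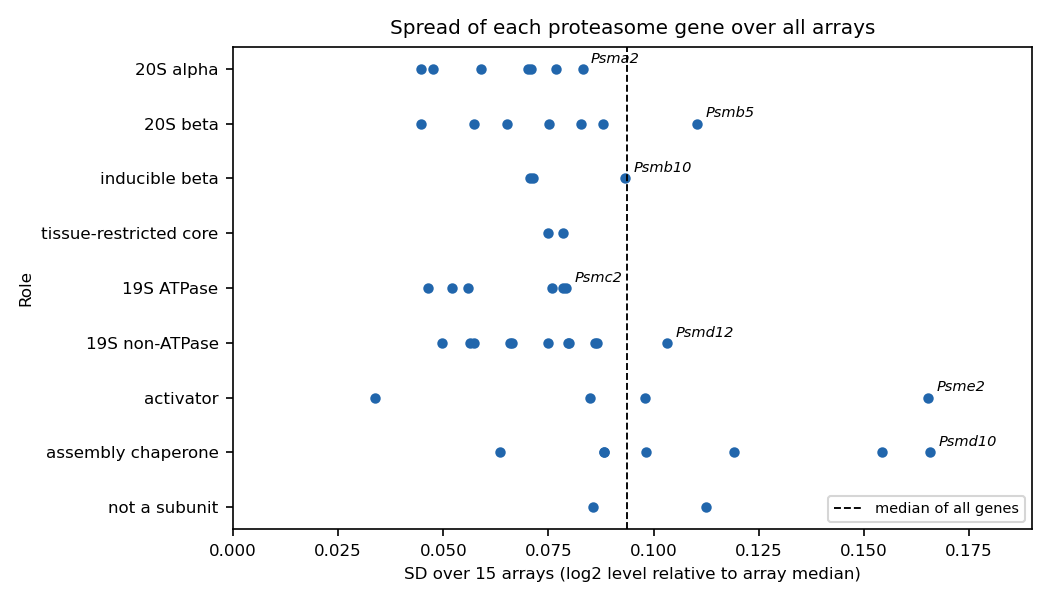
SD of the level of each of the 49 proteasome genes over all 15 arrays (x axis, log2 level relative to the array median), one point per gene, by role (y axis), with the median SD of all 19938 genes as a dashed line. The core and cap subunits lie mostly left of the line, and the widest genes are the activator Psme2 (0.165) and the assembly chaperone Psmd10 (0.166).

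No proteasome gene differed between groups at an adjusted p under 0.05 in any comparison. In the limma F-test over the 5 groups 0 of 49 passed, against 0.0% of all genes, and 3 of 49 had an unadjusted p under 0.05, against 6.43% of all genes. The 10 genes of smallest p in limma's F-test were, from the lowest, Psmd5 (unadjusted p of 0.0106), Psmg4, Psme4, Psma6, Psmb8, Psmc6, Psmd12, Psmg2, Psme3ip1 and Psmd3 (0.178), and the smallest adjusted p over all genes was 0.609 among the 49. Over 11 contrasts and 49 genes, 30 of 539 tests had an unadjusted p under 0.05. Among all genes that share ran from 2.86% in SSS against CC to 11.3% in SSM against MSM. The largest of the differences between 2 groups was 0.27 (1.20-fold), for Psmg4 in SSS against MSS, and the median size of such a difference was 0.04. The intervals limit what could have been missed. With SSM against CC the 95% interval of 44 of the 49 genes lay within 0.3 of 0 on the log2 scale (1.23-fold), and the number was 45 for SSS, MSM and MSS against CC, 47 for SSM against SSS, 46 for MSM against MSS, 42 for SSM against MSM and 46 for SSS against MSS.

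**Figure D2:**
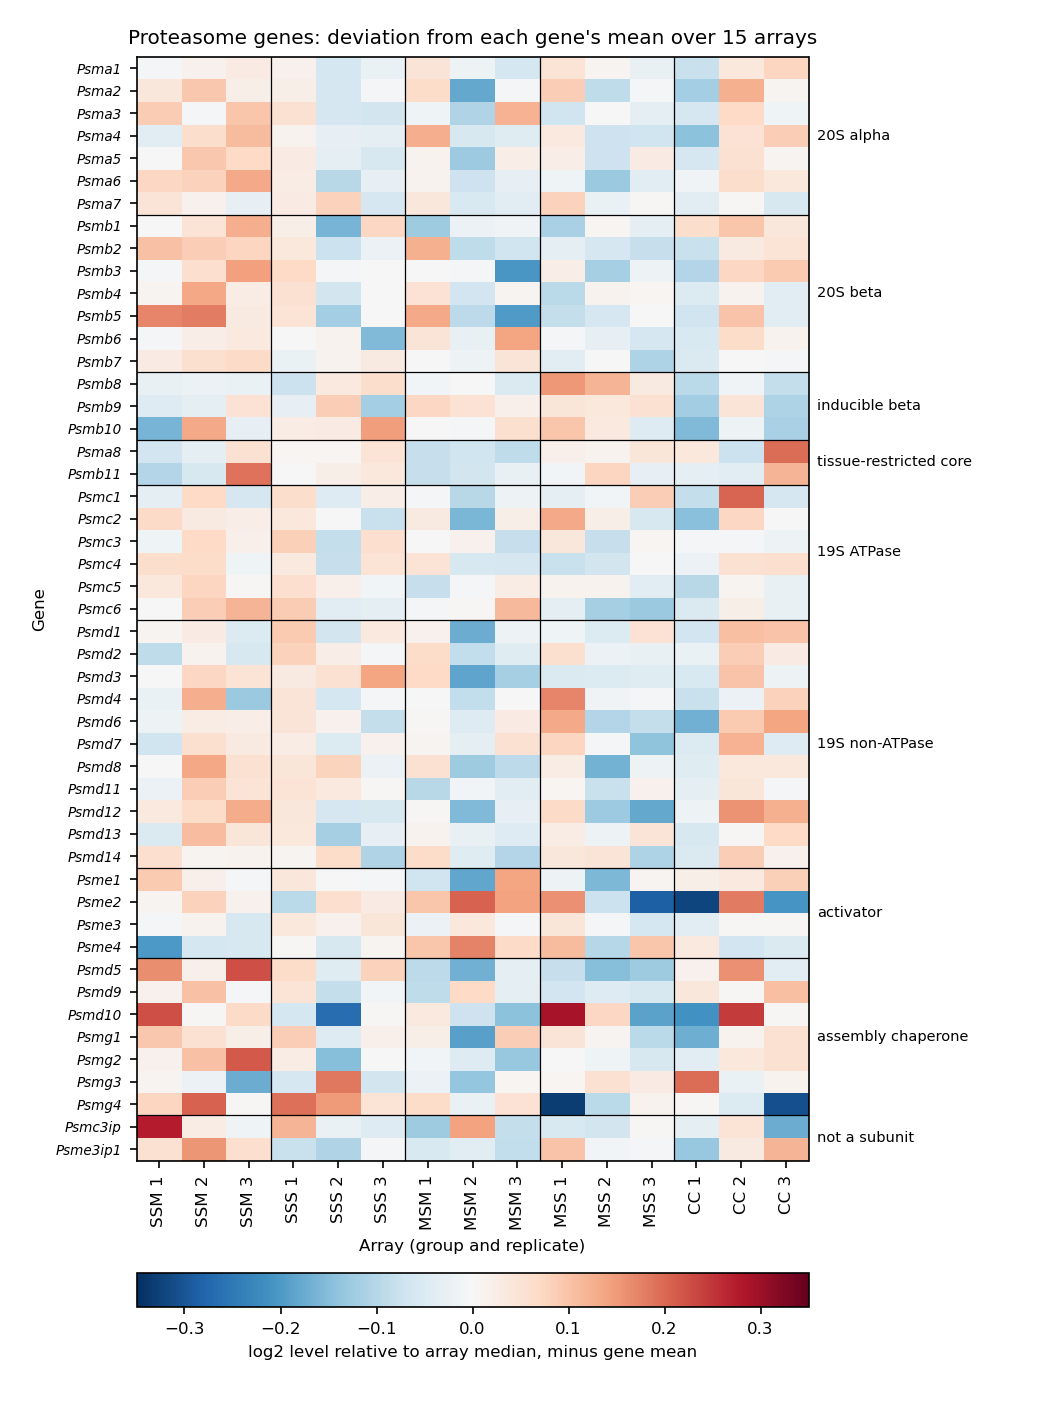
Level of each of the 49 proteasome genes (rows, by role) on each of the 15 arrays (columns, SSM, SSS, MSM, MSS and CC from left to right), as the deviation in log2 units from the gene's own mean over all arrays. Most of a column is red on SSM replicate 2 and blue on MSM replicate 2 and CC replicate 1, while few rows separate the groups.

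Some arrays stood high or low for most of the 49 genes. On SSM replicate 2 the level of 42 of the 49 lay above the gene's own mean, against 61.8% of all genes. On SSS replicate 1 the number was 41, against 65.1%, and on CC replicate 2 it was 40, against 52.4%. On MSM replicate 2 it was 8, against 42.0%, and on CC replicate 1 it was also 8, against 41.9%. The median deviation of the 49 genes from their own means was 0.058 on SSM replicate 2 and 0.038 on SSS replicate 1, where that of all genes was 0.017 and 0.022 and that of the brighter genes, above the median gene, 0.036 and 0.025. On MSM replicate 2 it was -0.053, against -0.011 for all and -0.020 for the brighter genes. Both a high and a low array thus came from CC. MSM replicate 2 held the lowest value of 11 genes and CC replicate 1 that of 8. Striatum markers stood above the rest on both and, highest, on SSM replicate 1. On SSM replicate 1, 27 of the 49 genes lay above their own mean, against 35.5% of all genes. The part of neighbouring tissue in these shifts was not tested.

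Severe stress was compared with mild stress as the mean of the morphine pair (SSM minus MSM) and the saline pair (SSS minus MSS). The median difference of the 49 genes was 0.04, against 0.01 for all genes, and 39 of 49 differences were above 0, against 56.1% of all genes. That number was 46 on the deposited values, against 70.3% of all genes, 30 after quantile normalization, against 52.6%, and 47 with arrays centred on all probe sets, against 82.0%. None of the 49 passed after adjustment, against 0.0853% of all genes (17 genes), and 5 had an unadjusted p under 0.05, against 10.7% of all genes. The unadjusted count was 8 on the deposited values, against 12.1%, 4 after quantile normalization, against 11.1%, and 19 with arrays centred on all probe sets, against 23.4%. By role, differences were above 0 in 6 of 6 19S ATPases, 9 of 11 19S non-ATPases, 6 of 7 20S alpha and 6 of 7 constitutive beta subunits, 5 of 7 assembly chaperones, 1 of 3 inducible beta subunits and 2 of 4 activators. After quantile normalization the numbers were 4 of 6 19S ATPases, 5 of 11 19S non-ATPases, 4 of 7 alpha and 6 of 7 constitutive beta subunits. Stress level and the SS number in the sample titles, whose meaning is not stated, cannot be told apart, since it is 8, 9 or 10 in severe, 11 in mild and 12 in CC samples. With 1 array left out the median ran from 0.022 to 0.045, and it was 0.02 without MSM replicate 2. It was 0.05 without SSM replicate 1 and MSM replicate 3, the arrays with the fewest hippocampal neuron markers. Without the 3 arrays low in choroid plexus markers, which leaves MSS 1 array, it was 0.056, against 0.014 for all genes. Then 43 of 49 differences were above 0, against 57.2%.

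Psmd5 encodes a chaperone that holds ATPase subunits during assembly of the 19S base. Its levels were 2.00, 1.86 and 2.06 in SSM and 1.90, 1.79 and 1.92 in SSS, against 1.75, 1.67 and 1.81 in MSM and 1.76, 1.69 and 1.71 in MSS, and they were 1.85, 2.00 and 1.80 in CC. SSM lay wholly above MSM, and SSS wholly above MSS, while SSS replicate 2 fell inside the range of the mild groups. CC overlapped both severe groups and, at its lowest array, MSM. Of the 49 genes 7 lay wholly above in SSM against MSM, against 8.11% of all genes, and 3 in SSS against MSS, against 5.53%. Averaged over the pairs Psmd5 was 0.19 higher under severe stress (SE 0.048, 95% interval 0.09 to 0.29, 1.14-fold), with an unadjusted p of 0.00123 and an adjusted p of 0.119 in limma. Of the 49 genes it had the smallest p. Within the morphine pair the difference was 0.23 (SE 0.067, adjusted p = 0.231 in limma) and within the saline pair 0.15 (SE 0.067, adjusted p = 0.9999 in limma).

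Psme4 encodes an activator of the core that acts mainly in the nucleus, and it ran the other way. Its levels were 1.86, 2.00 and 2.00 in SSM and 2.06, 2.00 and 2.07 in SSS, against 2.16, 2.23 and 2.13 in MSM and 2.17, 1.96 and 2.16 in MSS, and they were 2.09, 1.99 and 2.01 in CC. All SSM arrays lay below all MSM arrays, as for 2 of the 49 genes, against 6.26% of all genes. SSS overlapped MSS through MSS replicate 2. The averaged difference was -0.13 (SE 0.045, 0.911-fold, adjusted p = 0.270 in limma), and in SSM against MSM it was -0.22 (SE 0.064, adjusted p = 0.233 in limma).

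Psmg4, a chaperone in the assembly of the alpha ring, had levels of -0.31, -0.18 and -0.38 in SSM and -0.19, -0.23 and -0.34 in SSS, against -0.32, -0.41 and -0.34 in MSM and -0.72, -0.48 and -0.37 in MSS, and -0.38, -0.43 and -0.69 in CC. The MSS and CC groups each held 1 array far below the others. Its averaged difference was 0.17 (SE 0.066, adjusted p = 0.376 in limma), made up of 0.27 in the saline pair (SE 0.094, adjusted p = 0.9999 in limma) and 0.06 in the morphine pair. The 19S lid subunits Psmd3 and Psmd8 had averaged differences of 0.12 (SE 0.046, adjusted p = 0.354) and 0.10 (SE 0.045, adjusted p = 0.442). For all 5 of these genes at least 1 severe array overlapped the mild ones. On the lower side followed the inducible subunits Psmb9, at -0.06, and Psmb8, at -0.05. For Psmb8 the sign turned to 0.01 when arrays were centred on all probe sets.

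**Figure D3:**
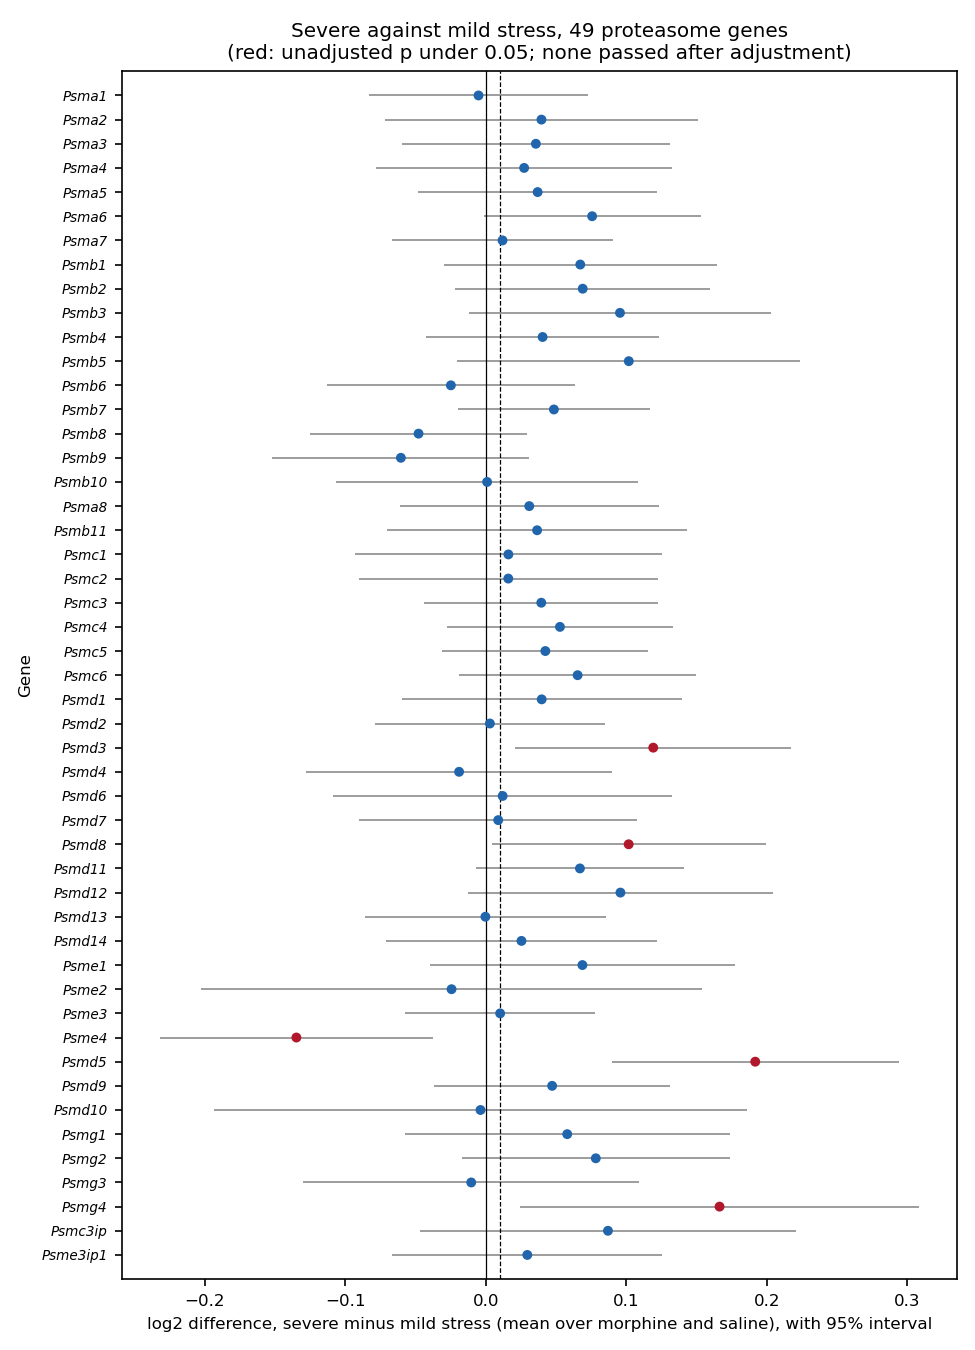
Difference of each of the 49 proteasome genes between severe and mild stress, as the mean of SSM minus MSM and SSS minus MSS (x axis, log2, with 95% interval), with a solid line at 0 and a dashed line at the median of all genes. Psmd5 lies furthest right, at 0.19, and Psme4 furthest left, at -0.13, and none passed after adjustment over all genes.

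In the morphine pair alone, SSM against MSM, the median difference was 0.06, against 0.02 for all genes, with 39 of 49 above 0, against 56.8% of all genes. The number was 46 on the deposited values, against 73.6%, 36 after quantile normalization, against 51.4%, and 47 with arrays centred on all probe sets, against 79.0%. Unadjusted, 6 of 49 had a p under 0.05, against 11.3% of all genes, and 12 did on the deposited values, against 14.3%, and 17 with arrays centred on all probe sets, against 21.4%. After adjustment 0 of 49 passed, against 0.0% of all genes. Besides Psmd5 and Psme4, the 6 included the assembly chaperone Psmg2 at 0.17 (SE 0.063, adjusted p = 0.322 in limma), the alpha subunit Psma6 at 0.12 (SE 0.051, adjusted p = 0.381), Psme3ip1 at 0.15 (SE 0.063, adjusted p = 0.399) and Psmb5 at 0.18 (SE 0.080, adjusted p = 0.426). The smallest p-values among differences below 0 were, after Psme4, those of Psme2, a subunit of the interferon-inducible activator, at -0.11 (SE 0.117), and of Psmb9 at -0.06 (SE 0.060). Psmb5 had levels of 3.27, 3.27 and 3.13 in SSM, against 3.23, 3.01 and 2.90 in MSM. MSM replicate 1 fell inside the SSM range. Without MSM replicate 2 the median difference of the 49 genes in SSM against MSM was 0.03.

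In the saline pair, SSS against MSS, the median was 0.02, against 0.0037 for all genes, and 31 of 49 differences were above 0, against 52.2% of all genes. After quantile normalization the median was 0.0020, against 0.0024 for all genes, and 26 were above 0, against 51.4%. On the deposited values 34 were, against 54.4%, and with arrays centred on all probe sets 41 were, against 74.4%. Unadjusted, 2 of 49 had a p under 0.05, against 3.79% of all genes, namely Psmg4 and Psmd5, and 0 passed after adjustment, against 0.0% of all genes. Psmd3 followed with 0.12 (SE 0.065). On the lower side were Psmb8 at -0.09 (SE 0.051), Psme3ip1 at -0.09 (SE 0.063) and the chaperone Psmd10 at -0.17 (SE 0.125).

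Morphine was compared with saline within each stress level. The choroid plexus markers moved with these comparisons, since all 3 arrays on which they were low came from saline groups. Their differences were above 0 for 10 of 10 in SSM against SSS (median 0.31), in MSM against MSS (median 1.11) and in the average of both (median 0.69), and an unadjusted p under 0.05 was found for 0, 8 and 5 of them. None passed after adjustment, and their part in the values of the proteasome genes was not tested beyond leaving out these 3 arrays. Other tissue markers moved as well. In SSM against SSS 8 of 8 striatum markers (median 1.015), 8 of 8 myelin and oligodendrocyte markers (0.50) and 1 of 10 hippocampal neuron markers (-0.27) were above 0. In MSM against MSS it was 7 of 8 (0.27), 7 of 8 (0.56) and 1 of 10 (-0.29). Their part in the proteasome values was not tested beyond leaving out arrays. Under severe stress (SSM against SSS) the median difference was 0.04, against -0.01 for all genes, and 36 of 49 were above 0, against 46.1% of all genes, and 45 on the deposited values, against 74.0%. Of the 49, 0 passed after adjustment, against 0.0% of all genes, and 3 had an unadjusted p under 0.05, against 6.49% of all genes. On the deposited values 7 did, against 9.37%, and without the 3 arrays low in choroid plexus markers 0 did, against 2.92%. Psma6 had levels of 3.28, 3.28 and 3.34 in SSM, against 3.23, 3.11 and 3.18 in SSS. The groups did not overlap, and the difference was 0.13 (SE 0.051, adjusted p = 0.757 in limma). In CC Psma6 stood at 3.19, 3.27 and 3.24, just below SSM. Psmg2 was 0.15 higher and overlapped, and Psme3ip1 was 0.15 higher without overlap (adjusted p = 0.757 in limma for both). Of the 49 genes 3 lay above SSS without overlap, against 5.32% of all genes. The lower ones of smallest p were Psme4 at -0.09 (SE 0.064), Psmd2, a ubiquitin-binding subunit of the base, at -0.08 (SE 0.054) and Psmb10 at -0.09 (SE 0.071). All 7 constitutive beta subunits had differences above 0, between 0.04 and 0.15, also under the 4 other scalings, and none of these passed.

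Under mild stress (MSM against MSS) the median was -0.01, against -0.02 for all genes, and 21 of 49 differences were above 0, against 38.9% of all genes. On the deposited values the median turned to 0.0099 and 29 were above 0, against 50.1% of all genes. Without the 3 arrays low in choroid plexus markers, which leaves MSS 1 array that is assumed to vary like the other groups, the median was -0.0047 and 24 were above 0, against 48.0%. After adjustment 0 of 49 passed, against 0.0% of all genes, and 2 had an unadjusted p under 0.05, against 3.88% of all genes, or 1 without those 3 arrays, against 2.78%. The ATPase gene Psmc6 had levels of 3.00, 3.01 and 3.12 in MSM, against 2.97, 2.89 and 2.87 in MSS. MSM lay above MSS on all arrays, by a mean of 0.13 (SE 0.056, adjusted p = 0.955 in limma). Such a lack of overlap was found for 1 of the 49 genes, against 2.17% of all genes. Psmb8 was -1.58, -1.57 and -1.62 in MSM, against -1.42, -1.45 and -1.54 in MSS, a difference of -0.12 (SE 0.051, adjusted p = 0.955 in limma). Without those 3 arrays the difference was 0.17 for Psmc6 and -0.05 for Psmb8. The next smallest p-values were those of Psme2 at 0.21 and Psmg4 at 0.17 on the higher side, and of Psma8 at -0.10 and Psme3ip1 at -0.09 on the lower side.

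Averaged over both stress levels, morphine minus saline had a median of 0.02, against -0.02 for all genes, with 33 of 49 above 0, against 40.0% of all genes. The number was 44 on the deposited values, against 67.3%, and 30 without the 3 arrays low in choroid plexus markers, against 46.9%. Of the 49, 0 passed after adjustment, against 0.0% of all genes, and 2 had an unadjusted p under 0.05, against 6.92% of all genes. These were Psmc6 at 0.10 (SE 0.039) and Psma6 at 0.08 (SE 0.036), each with an adjusted p of 0.702 in limma. The catalytic subunit Psmb6 followed at 0.07, and Psmb8 at -0.08, Psma8 at -0.07 and Psmg3 at -0.08 had the smallest p-values below 0. The interaction, the morphine difference under severe stress minus that under mild stress, had a median of 0.04, against 0.01 for all genes, with 37 of 49 above 0, against 54.6% of all genes. The number was 42 on the deposited values, against 69.5%, and 30 without those 3 arrays, against 50.8%. Again 0 of 49 passed, against 0.0% of all genes, and 1 had an unadjusted p under 0.05, against 3.5% of all genes: Psme3ip1, at 0.24 (SE 0.090, adjusted p = 0.996 in limma). Next were Psmg2 at 0.19 and Psmd10 at 0.33 (SE 0.177), and, below 0, Psme4 at -0.17, Psmg4 at -0.20 and Psme2 at -0.18.

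**Figure D4:**
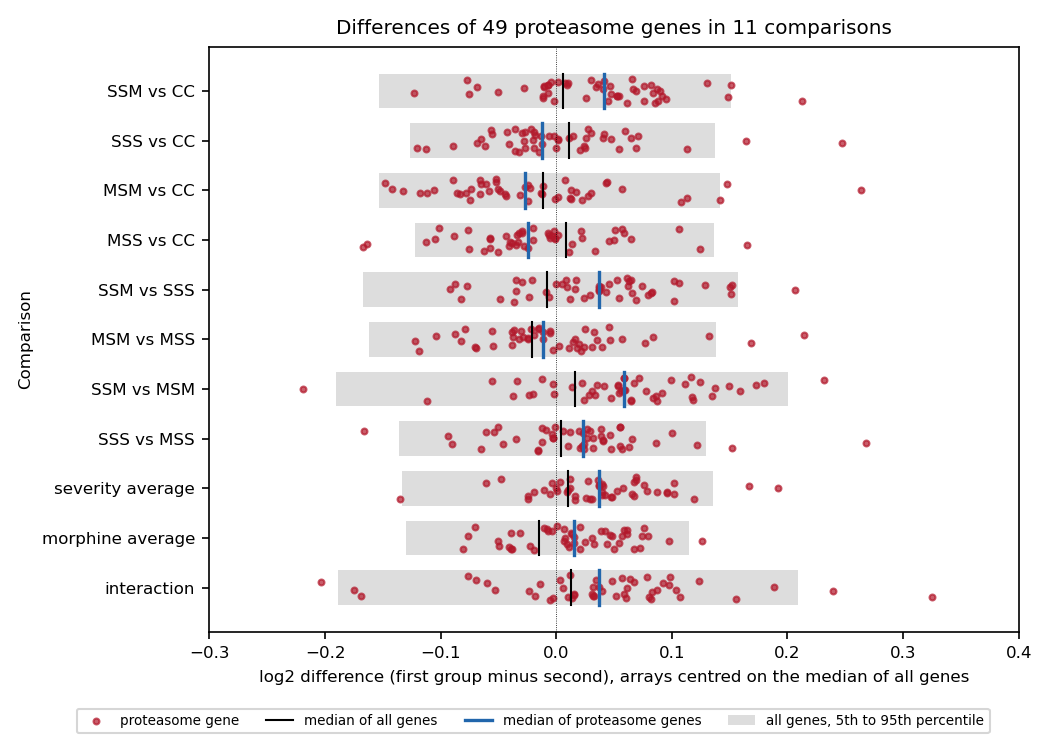
Differences of the 49 proteasome genes (points) in 11 comparisons (rows), as log2 differences of the first-named group minus the second, with the range from the 5th to the 95th percentile of all genes in grey, the median of all genes in black and that of the proteasome genes in blue. The blue lines lie between -0.03 and 0.06, and most points lie inside the grey range.

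The 4 treated groups were each set against the same 3 CC arrays, so these comparisons share their controls. The median difference of the 49 genes was 0.04 for SSM, -0.01 for SSS, -0.03 for MSM and -0.02 for MSS, against 0.01, 0.01, -0.01 and 0.01 for all genes. Differences above 0 numbered 34 of 49 for SSM (52.7% of all genes), 21 for SSS (56.7%), 17 for MSM (43.8%) and 15 for MSS (55.1%). After adjustment 0 of 49 genes passed in each of the 4 comparisons, against 0.0% of all genes. An unadjusted p under 0.05 was found for 1 gene in SSM (6.03% of all genes), 2 in SSS (2.86%), 3 in MSM (3.79%) and 3 in MSS (3.33%). These medians turned on single control arrays. Without CC replicate 1 the median of SSM against CC was -0.0014. Without CC replicate 2 it was 0.025 for SSS, 0.0032 for MSM and 0.0026 for MSS. For SSM 45 differences were above 0 on the deposited values, against 76.9% of all genes, and 44 with arrays centred on all probe sets, against 72.2%. With that centring 11 were for MSM, against 32.7%, and 9 for MSS, against 36.0%. On the deposited values 8 of 49 had an unadjusted p under 0.05 in SSM, against 9.01%.

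In SSM against CC the gene with an unadjusted p under 0.05 was Psmg4, at 0.21 (SE 0.094, adjusted p = 0.801 in limma). It was followed by Psmc3ip at 0.15 and Psmb5 at 0.13, and on the lower side by Psmg3, a further chaperone of the alpha ring, at -0.12, Psmd2 at -0.08 and Psme4 at -0.08. In SSS against CC Psmg4 was at 0.25 (SE 0.094) and the inducible subunit Psmb10 at 0.16 (SE 0.071), each with an adjusted p of 0.9995 in limma. Psmb10 had levels of 1.51, 1.51 and 1.63 in SSS, against 1.32, 1.46 and 1.36 in CC. Both genes lay above CC on all 3 SSS arrays, which held for 3 of the 49 genes and 6.49% of all genes. The lower ones of smallest p were Psmd12, Psmb1 and Psma6, at -0.11, -0.09 and -0.06.

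In MSM against CC Psme2 was at 0.26 (SE 0.117), Psme4 at 0.14 (SE 0.064) and Psma8 at -0.13 (SE 0.061), each with an adjusted p of 0.996 in limma. Psme2 had levels of 1.54, 1.65 and 1.59 in MSM, against 1.13, 1.63 and 1.24 in CC. CC replicate 2 fell inside the MSM range, far above the other CC arrays. In MSS against CC Psmb8 was at 0.16 (SE 0.051), Psmd5 at -0.16 (SE 0.067) and the 19S lid subunit Psmd12 at -0.17 (SE 0.071), each with an adjusted p of 0.999 in limma. Psmb8 had levels of -1.42, -1.45 and -1.54 in MSS, against -1.67, -1.58 and -1.66 in CC, without overlap. Its unadjusted p was 0.0059 in limma. The higher MSS levels, -1.42 and -1.45, came from replicates 1 and 2, which were low in choroid plexus markers. On SSS replicate 2, also low in these markers, Psmb8 stood at -1.54, between -1.65 and -1.51 on the other SSS arrays. The part of choroid plexus RNA in these levels was not tested beyond leaving out arrays. Psmd5 also lay below CC on all 3 MSS arrays, and Psmd12 overlapped. In MSS 5 of the 49 genes lay wholly below CC, against 3.68% of all genes, and 1 wholly above, against 6.08%.

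**Figure D5:**
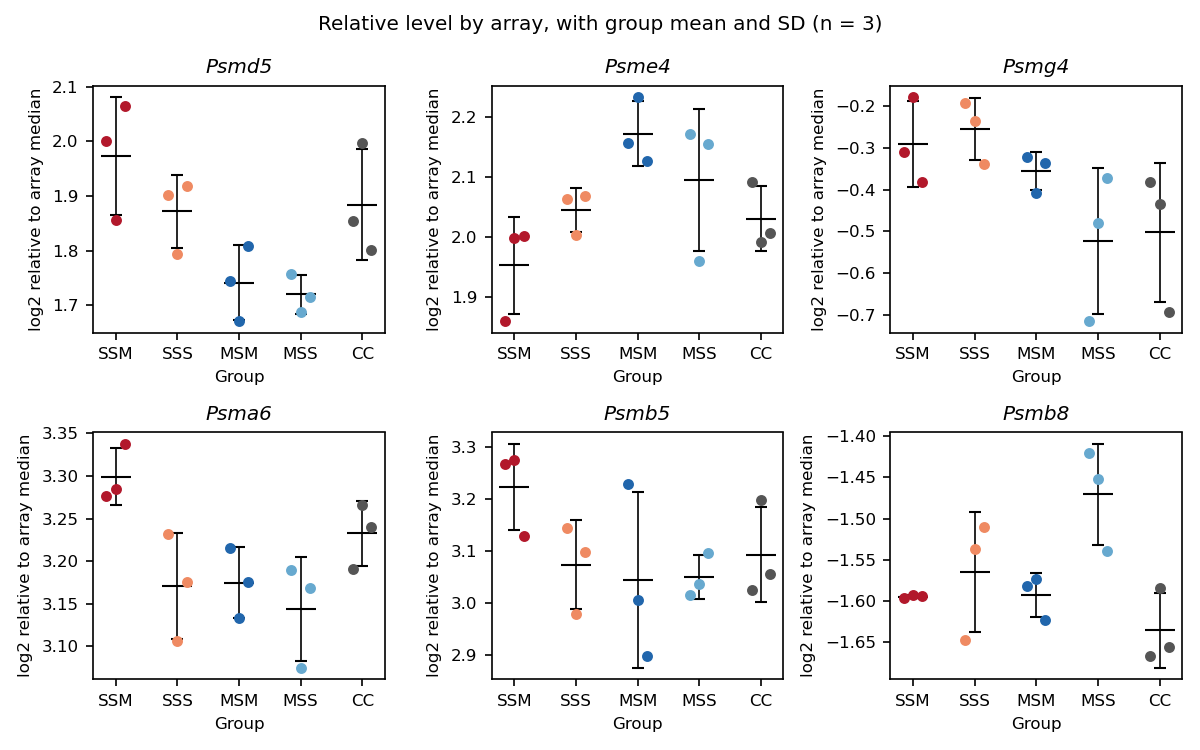
Levels of Psmd5, Psme4, Psmg4, Psma6, Psmb5 and Psmb8 on each array (points, log2 relative to the array median), by group, with the group mean and SD (n = 3). Psmd5 is higher in SSM than in MSM and in SSS than in MSS, and Psme4 lies below MSM on every SSM array. Psmb8 has its highest mean in MSS, where replicates 1 and 2 were low in choroid plexus markers, as was SSS replicate 2.

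The inducible beta subunits Psmb8, Psmb9 and Psmb10, which carry the catalytic sites of the immunoproteasome, had median differences of 0.05 in SSM, 0.07 in SSS, 0.11 in MSM and 0.12 in MSS against the shared CC arrays, and all 3 were above 0 in each, also under the 4 other scalings. Psmb9 averaged 0.33 ± 0.052 in SSM, 0.32 ± 0.104 in SSS, 0.39 ± 0.028 in MSM and 0.38 ± 0.009 in MSS, against 0.28 ± 0.093 in CC (SD, n = 3 arrays each). Its CC arrays stood at 0.22, 0.38 and 0.23, so CC replicate 2 matched the treated groups. Of the constitutive catalytic subunits, Psmb6, with caspase-like activity, averaged 3.75 ± 0.019 in SSM, 3.68 ± 0.094 in SSS, 3.78 ± 0.083 in MSM and 3.70 ± 0.027 in MSS, against 3.74 ± 0.059 in CC. Psmb7 averaged 4.26 ± 0.020 in SSM, 4.22 ± 0.028 in SSS, 4.22 ± 0.032 in MSM and 4.16 ± 0.055 in MSS, against 4.19 ± 0.027 in CC.

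Like Psmb6 and Psmb7, none of the following genes had an unadjusted p under 0.05 in any of the 11 contrasts. Psmd14, the deubiquitinase of the lid, averaged 2.57 ± 0.028 in SSM, 2.54 ± 0.086 in SSS, 2.52 ± 0.084 in MSM and 2.54 ± 0.086 in MSS, against 2.56 ± 0.068 in CC. The ubiquitin receptor Psmd4 averaged 2.25 ± 0.129 in SSM, 2.25 ± 0.053 in SSS, 2.22 ± 0.049 in MSM and 2.31 ± 0.103 in MSS, against 2.25 ± 0.080 in CC. Psme1, the partner of Psme2, averaged 2.77 ± 0.049 in SSM, 2.75 ± 0.024 in SSS, 2.70 ± 0.163 in MSM and 2.68 ± 0.090 in MSS, against 2.78 ± 0.033 in CC. Psme3, the subunit of a nuclear activator, had the smallest range of the 49 genes, 0.104 over the 15 arrays. The chaperone Psmg1 averaged 1.34 ± 0.036 in SSM, 1.31 ± 0.066 in SSS, 1.26 ± 0.144 in MSM and 1.27 ± 0.072 in MSS, against 1.25 ± 0.120 in CC.

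Genes that work with the proteasome were followed on a list of 30, of which 21 were measured. It holds regulators, ubiquitin shuttles and enzymes. After adjustment 0 of 21 passed in any of the 11 contrasts, against 0.0853% of all genes in the severity average and 0.0% in the others. In the severity average 17 of 21 differences were above 0, against 56.1% of all genes, with a median of 0.04, against 0.01. In SSM against MSM 16 were, against 56.8% of all genes, with a median of 0.07, against 0.02. Other scalings were not tried for this list. Of the genes with the smallest p in the F-test, Txnl1, a thioredoxin-like protein bound to the 19S cap, averaged 1.80 ± 0.041 in SSM, 1.68 ± 0.019 in SSS, 1.70 ± 0.010 in MSM and 1.65 ± 0.033 in MSS, against 1.68 ± 0.032 in CC. The SSM mean was thus highest. Txnl1 differed by 0.12 in SSM against SSS (SE 0.043, adjusted p = 0.757 in limma). The shuttle Ubqln4 had a severity difference of 0.14 (SE 0.049, adjusted p = 0.287 in limma), and Nfe2l2, a stress-response transcription factor, was at 0.26 in SSM against CC (SE 0.090, adjusted p = 0.662 in limma). Nfe2l1 averaged 2.84 ± 0.114 in SSM, 2.81 ± 0.026 in SSS, 2.86 ± 0.055 in MSM and 2.85 ± 0.041 in MSS, against 2.86 ± 0.017 in CC. The inhibitor gene Psmf1 was at -0.12 in SSS against CC (SE 0.053, adjusted p = 0.9995 in limma). The core assembly factor Pomp and the cap-bound deubiquitinases Uchl5 and Usp14 had F-test p-values of 0.734, 0.880 and 0.872.

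A list of 16 antigen presentation and interferon response genes, of which 11 were measured, was set beside the inducible subunits. Again 0 of 11 passed in any contrast, against 0.0853% of all genes in the severity average and 0.0% in the others. Tap2, a subunit of the transporter that carries peptides made by the proteasome to MHC class I, averaged -0.64 ± 0.136 in SSM, -0.36 ± 0.090 in SSS, -0.50 ± 0.052 in MSM and -0.51 ± 0.075 in MSS, against -0.60 ± 0.098 in CC. The difference in SSM against SSS was -0.29 (SE 0.075, adjusted p = 0.757 in limma), and in SSS against CC it was 0.24 (SE 0.075, adjusted p = 0.9995 in limma). Tap1, also on the list, averaged -0.50 in SSM, -0.50 in SSS and -0.40 in CC. For the whole list 2 of 11 were above 0 in SSM against SSS (median -0.03), against 46.1% of all genes. In SSS against CC 8 of 11 were (median 0.02), against 56.7% of all genes. For microglia, a cell type rich in these genes, the mean level of 10 markers was 0.864 on SSM replicate 1, against 0.54 to 0.68 on the other 14 arrays, and its part in these values was not tested.

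Promoter sequence was read for the 41 of 49 genes found in the RefSeq table of promoters (GRCm38.p6), over the 250 bases before the start of the gene, on both strands. The ETS site CCGGAAG was present in 13 of the 41 (31.7%), against 7.83% of all 27025 genes in the table. A gene counted once if any promoter listed for it held the motif. The GC box GGGCGG was present in 23 (56.1%), against 35.4%. The median GC content, averaged over the promoters of each gene, was 57.6% for the 41 genes, against 52.4% for all. The core of the antioxidant response element, TGACNNNGC, through which Nfe2l1 and Nfe2l2 are known to act, was found in 5 (12.2%), against 11.5%, and its longer form TGACTCAGC in 0, against 0.426%. CCAAT stood in 16 (39.0%), against 37.5%, the interferon-stimulated response element in 3 (7.32%), against 3.46%, the gamma-activated site TTCNNNGAA in 2 (4.88%), against 8.13%, and the ZNF143 site in 2 (4.88%), against 1.02%. A match describes letters only, and GC-rich motifs are met more often in GC-rich sequence.

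The windows that follow show where 1 such motif lies in each of 7 genes named above. Capitals mark only the motif given here for the gene, and other motifs stay in lower case, such as the GC box beside the ETS site of Psmc6. Psme4, Psma6, Psmc6 and Psmd12 carry an ETS site, on either strand, Psmd5 has a pair of GC boxes, and the catalytic subunit genes Psmb5 and Psmb6 carry the antioxidant response element core.
Psme4 (chr11:30771707-30771743, plus strand): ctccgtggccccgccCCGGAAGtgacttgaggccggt
Psma6 (chr12:55398678-55398714, plus strand): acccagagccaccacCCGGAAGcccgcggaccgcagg
Psmc6 (chr14:45329709-45329745, plus strand): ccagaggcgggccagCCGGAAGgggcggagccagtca
Psmd12 (chr11:107479496-107479527, plus strand): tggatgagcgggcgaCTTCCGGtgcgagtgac
Psmd5 (chr2:34871039-34871132, minus strand): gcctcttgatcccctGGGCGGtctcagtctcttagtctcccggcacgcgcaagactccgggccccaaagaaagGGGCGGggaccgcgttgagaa
Psmb5 (chr14:54618019-54618057, minus strand): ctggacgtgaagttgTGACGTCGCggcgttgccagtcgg
Psmb6 (chr11:70525333-70525356, plus strand): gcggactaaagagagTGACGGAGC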

How the data were processed

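The authors deposited a single table of log2 intensities with a column per array, made with RMA per the submitters' processing notes; the sources used here name no software or version for it. Background correction and summarising of probes therefore precede all values, and the column medians still differ. Groups follow the treatment label of each sample, and 0 columns were unused. Of 35557 probe sets, 23410 are in the platform annotation, 21789 with 1 symbol, 1621 with several and 12147 with none; 19938 genes remained after keeping the brightest row per gene. The 49 proteasome genes came from 55 rows, 5 genes having several, and 1 row with several symbols (Psme2 and Psme2b) was left out. Rows of 1 symbol may also bind near-identical copies, which was not resolved.

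Each array was centred on the median of the 19938 genes. Limma 3.58.1 in R 4.3.3 fitted a mean per group on 15 arrays (10 residual and 4.04 prior degrees of freedom), with eBayes, two-sided tests and Benjamini-Hochberg adjustment over all genes at 0.05. No filter on dim genes was applied. The fit was tested on simulated data. The number of arrays limits the precision. Genes and lists were chosen with earlier results of these data known. Named were the catalytic subunits, activators, ubiquitin receptors and chaperones, and per contrast the 3 smallest p-values in each direction. Alternatives were the deposited values, quantile normalization, averaged rows, brighter genes only, the titles' SS number as a block, pairs of groups alone, and leaving out arrays.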

Additional observations from a re-analysis of the deposited data

How the results depend on the processing

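None of the 49 proteasome genes passed after adjustment in any of 285 repeats of the 12 tests under the alternatives run (limma), where the smallest adjusted p was 0.0616, for Psmd5 in the severity average with arrays centred on all probe sets, an alternative chosen after seeing the data. The number of the 49 with an unadjusted p under 0.05 moved by more than 1.5 times. It was 1 in SSM against CC, 6 in SSM against MSM and 5 in the severity average, against 8, 12 and 8 on the deposited values (9.01%, 14.3% and 12.1% of all genes) and 4, 17 and 19 with arrays centred on all probe sets (8.77%, 21.4% and 23.4%). With the SS number as a random block it was 0 in SSM and in MSM against CC, 1 in MSS against CC and 3 in the severity average (4.31%, 1.88%, 1.75% and 6.38%). The median difference of the genes moved with the scale. On the deposited values it was 0.0977 in SSM against CC and 0.101 in SSM against SSS, where the median of all genes was 0.062 and 0.056. With arrays centred on all probe sets it was 0.125 in SSM against MSM and 0.0918 in the severity average, where all genes had 0.082 and 0.065, Psmb9 reversed to 0.0104 in SSM against MSM and Psmb8 to 0.0070 in the severity average. Without SSS replicate 2 and MSS replicates 1 and 2, the arrays low in choroid plexus markers and a choice made after seeing the data, Psmd10 reversed to 0.157 in SSS against MSS. By construction these scales move every gene of a comparison alike. In the severity average 46 of 49 differences were above 0 on the deposited values, 30 after quantile normalization, 27 of 43 with brighter genes only and 47 with centring on all probe sets.

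Leaving out 1 array at a time gave medians of -0.0014 to 0.067 in SSM against CC, -0.041 to 0.025 in SSS against CC, -0.068 to 0.0032 in MSM against CC, -0.055 to 0.0026 in MSS against CC, 0.024 to 0.047 in SSM against SSS, -0.021 to 0.0040 in MSM against MSS, 0.028 to 0.076 in SSM against MSM, 0.0011 to 0.039 in SSS against MSS, 0.022 to 0.045 in the severity average, 0.0071 to 0.028 in the morphine average and 0.016 to 0.061 in the interaction. Among all genes the severity average called 17, against 2 on the deposited values, 39 after quantile normalization, 82 of 9969 brighter genes, 20 with averaged rows, 32 with centring on all probe sets, 0 with the SS number as a random block, 13 without SSM replicate 1 and MSM replicate 3, 0 without the 3 arrays low in choroid plexus markers, and 1 to 33 when 1 array was left out. SSM against SSS called 33 genes with the SS number as a fixed block, none of them a proteasome gene, against 0 without it, but only SS number 8 holds both groups, so that value rests on SSM replicate 1 and SSS replicate 3 alone. SSM replicate 1 and SSS replicate 3 also differed in striatum markers, with means of 3.51 and 0.82, and in hippocampal neuron markers, with means of 1.44 and 2.05. No paired analysis was possible because the replicate numbers are names given in accession order.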

Other observations

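Psmd10, which encodes a chaperone of the 19S base also known as gankyrin, had the widest spread of the 49 proteasome genes, and its groups overlapped. Its levels were 1.53, 1.30 and 1.37 in SSM, 1.24, 1.03 and 1.30 in SSS, 1.33, 1.23 and 1.16 in MSM, 1.59, 1.37 and 1.11 in MSS, and 1.09, 1.54 and 1.30 in CC. Both its highest and its lowest values thus came from several groups, and the group SDs ran from 0.089 in MSM to 0.237 in MSS. Psme2 varied likewise within MSS, at 1.61, 1.37 and 1.16, and within CC, at 1.13, 1.63 and 1.24, whereas its SSM arrays lay at 1.46, 1.53 and 1.46.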
